A study of Mus musculus with 4 samples.

Results

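The 10 genes described here make and regulate the class I antigen presentation pathway: the heavy chains H2-D1, H2-K1, H2-T23 and H2-Q4, the light chain B2m, the peptide transporter subunits Tap1 and Tap2, the immunoproteasome subunits Psmb8 and Psmb9, and the transcriptional regulator Nlrc5. They were taken by symbol from the gene list of the count matrices, and all 10 were found among its 32285 genes. Single nuclei came from the cortex of 5-month-old C57BL/6 mice, either wildtype or Setdb1-CK-cKO, with 2 animals per genotype and 1 droplet 3′ RNA library per animal. The protein made from Setdb1 places methyl groups on lysine 9 of histone H3. The labels call the second genotype a conditional knockout but do not say what CK stands for, which cells carry the deletion or which exon was removed, so every cell class below may or may not carry it. The study was set up to look at SETDB1 in neuroinflammation and in anxiety- and depression-like behaviour, as far as its title says.

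Class I molecules present short peptides from inside the cell to CD8 T cells. The proteasome cuts proteins into peptides, the immunoproteasome subunits change which peptides are made, the TAP transporter carries them into the endoplasmic reticulum, and a heavy chain paired with B2m takes a peptide to the cell surface. Interferon raises most of these genes, and NLRC5 is the main activator of their promoters. In the brain class I RNA is known to be low in neurons and higher in microglia and vessel-associated cells, and class I proteins in neurons have also been studied at synapses.

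After filtering, 52038 nuclei remained, 13882 and 13712 in wildtype replicates 1 and 2 and 11176 and 13268 in knockout replicates 1 and 2; values for 4 libraries below always follow this order. The deposited matrices held between 38314394 and 45605971 unique molecular identifiers (UMIs, counted RNA molecules) per library, and any 2 libraries shared between 48 and 64 barcodes. Setdb1 RNA stood at 68.9, 64.5, 69.6 and 65.8 CPM (UMIs scaled to a fixed library total), which checks nothing about the deletion, since the labels do not say which part of the gene was removed. Xist, expressed where an X chromosome is silenced, stood at 1.75, 1019, 0.95 and 1379 CPM, and the Y-linked gene Uty 89.4, 0.125, 81.6 and 0.028 CPM, so the sex-linked RNA of both knockout libraries is the opposite of their listed sexes. Both patterns occur once in each genotype. Classes were named from marker genes after clustering without antigen presentation genes: 27467 excitatory neurons, 6461 inhibitory neurons, 6592 oligodendrocytes, 3480 astrocytes, 2302 microglia, 1547 oligodendrocyte precursors, and 898 vascular cells made up of 575 fibroblasts, 232 mural cells and 91 endothelial cells. UMIs were summed per library and class, so n = 2 animals per genotype throughout. Nothing in the labels beyond the animal count describes how the animals were raised, so the p-values concern these animals only. With 1 library per animal, the spread between animals cannot be told apart from that between library preparations. It also holds the 2 patterns of sex-linked RNA.

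In wildtype cortex B2m, H2-K1 and H2-D1 were compared among the classes with at least 30 nuclei in every library. All 3 were low in neurons. Of these classes microglia had the highest B2m, and H2-K1 and H2-D1 were highest in fibroblasts and next in microglia. Endothelial cells and border macrophages had fewer nuclei and were left out, so their place in this order is not known. B2m measured 68.4 and 50.2 CPM in the 2 wildtype microglia samples, against 6.52 and 6.47 CPM in excitatory neurons and 6.20 and 8.08 CPM in inhibitory neurons. Between these ends stood oligodendrocyte precursors (14.7 and 7.56 CPM), astrocytes (7.69 and 16.4 CPM), oligodendrocytes (14.5 and 15.3 CPM), mural cells (31.5 and 0 CPM) and fibroblasts (23.3 and 17.4 CPM). The microglia values lay apart from all of these, while the neighbouring classes in between overlapped or came from fewer than 10 UMIs per library. H2-K1 ran from 1.25 and 1.11 CPM in excitatory neurons through 6.41 and 3.70 CPM in astrocytes to 23.5 and 14.6 CPM in microglia and 35 and 26.1 CPM in fibroblasts. H2-D1 measured 3.82 and 3.69 CPM in excitatory neurons, 5.62 and 2.49 CPM in inhibitory neurons, 12.8 and 16.7 CPM in microglia and 17.5 and 39.1 CPM in fibroblasts. By the mean of the wildtype libraries the neuron classes were the lowest for both heavy chains, mural cells with at most 1 wildtype UMI aside. Fibroblasts and microglia were the highest of the classes compared. The wildtype fibroblast values came from 6 and 6 UMIs of H2-K1 and 3 and 9 UMIs of H2-D1.

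**Figure D1:**
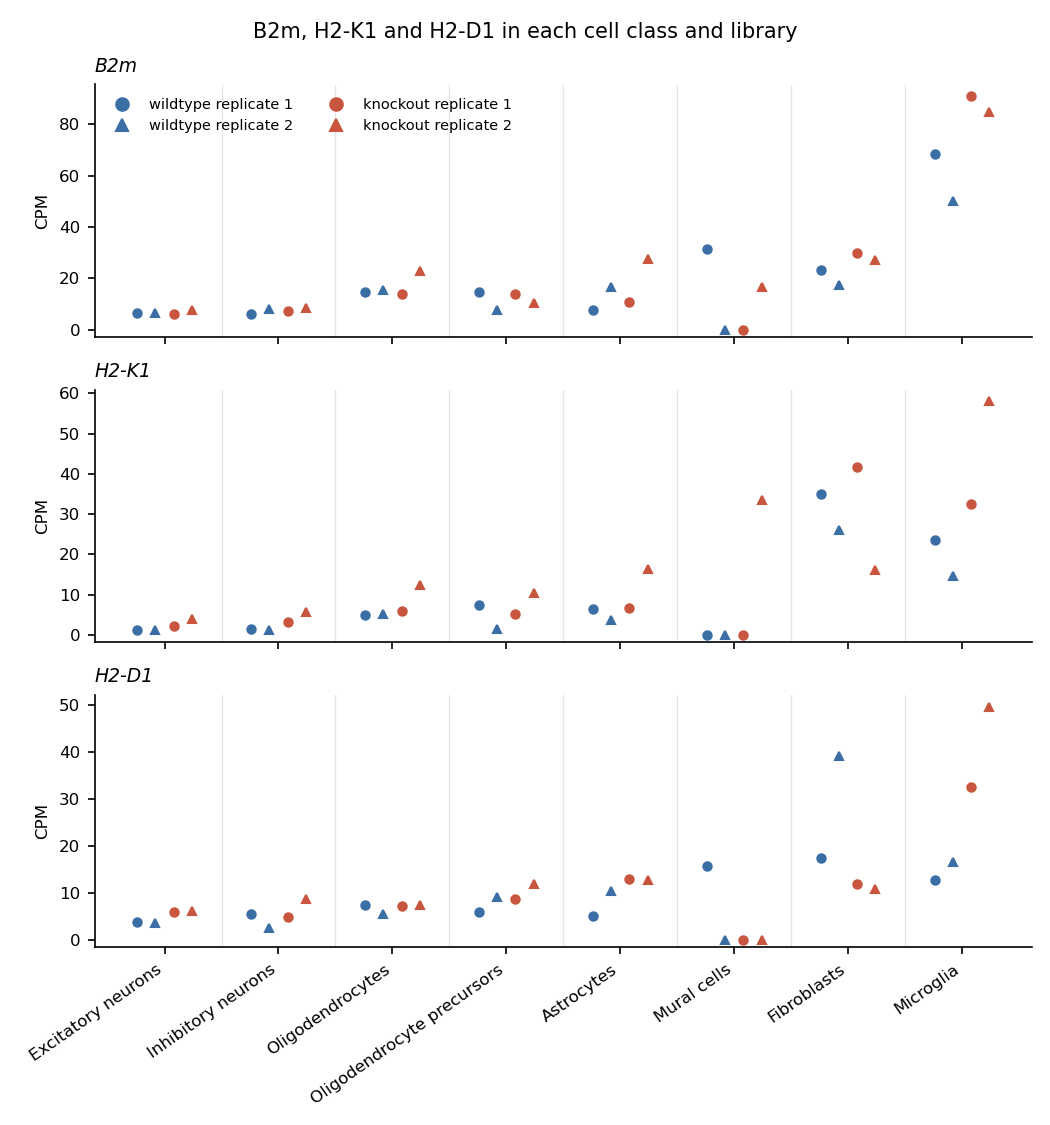
Level of B2m, H2-K1 and H2-D1 (CPM) in each cell class; every point is 1 library, blue for wildtype and red for knockout. Among the classes drawn, B2m is highest in the 4 microglia samples, between 50.2 and 90.9 CPM, and at most 8.32 CPM in the neuron samples.

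In a fit over the wildtype libraries of all classes, 6 of 7 members tested were above their excitatory neuron level in microglia, where 25.4% of 14325 genes were (edgeR quasi-likelihood, adjusted p under 0.05). B2m was higher there by 2.62 ± 0.283 log2 units (SE), H2-K1 by 3.41 ± 0.559 and Psmb9, whose product replaces a constitutive proteasome subunit, by 5.67 ± 0.824. Tap2 (1.86 ± 0.641), H2-D1 (1.41 ± 0.502) and H2-T23 (1.22 ± 0.533) passed as well, and Nlrc5 did not (0.77 ± 1.83). In fibroblasts H2-K1 (4.18 ± 0.709), Psmb9 (5.16 ± 1.40) and H2-D1 (2.51 ± 0.593) passed, 3 of 7, where 15.4% of genes did. Astrocytes had 2 of 7 members above excitatory neurons (29.0% of genes), H2-K1 (1.81 ± 0.543) and Nlrc5 (3.67 ± 0.601, edgeR adjusted p = 5.27e-09). Oligodendrocytes also had 2 of 7 (31.1% of genes), B2m (0.90 ± 0.247) and H2-K1 (1.78 ± 0.480), and oligodendrocyte precursors had 1, Tap2 (1.66 ± 0.631, 18.5% of genes). Neither inhibitory neurons (17.4% of genes) nor mural cells (5.95% of genes) had a member that passed. H2-Q4, Tap1 and Psmb8 were too low for this fit. Without scaling factors the median of all genes moved up by 0.12 to 0.68 log2 units relative to excitatory neurons, and the members above them became 5 in astrocytes, 5 in fibroblasts, 1 in inhibitory neurons, 3 in oligodendrocytes and 3 in precursors, with 6 in microglia and 0 in mural cells as before.

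The heavy chain genes H2-D1, H2-K1 and H2-Q4 share a stretch of promoter, shown because H2-D1 and H2-K1 are the members with the clearest values in neurons and lie far apart in the same gene cluster. H2-D1 (ENSMUSG00000073411) lies on GRCm38 chromosome 17 at 35262730 to 35267499 on the plus strand, H2-K1 (ENSMUSG00000061232) at 33996017 to 34000347 on the minus strand, and H2-Q4 (ENSMUSG00000035929) at 35379617 to 35385290 on the plus strand, all protein coding. The 30 bases, 5′ to 3′ along each gene, are from RefSeq on GRCm38.p6 at chr17:35262923-35262952 (H2-D1, inside an annotated 5′ UTR exon of a longer transcript), chr17:34000429-34000458 (H2-K1, minus strand) and chr17:35379443-35379472 (H2-Q4). Capitals mark GGGGATTCC, an NF-kappaB site, and TTTCACTTC, which on the other strand reads GAANNGAAA. These letters are the interferon response element core GAAANNGAA with its GAAA and GAA parts in the other order. GAANNGAAA was not among the planned motifs. The planned core GAAANNGAA was not found in the windows of H2-D1, H2-K1 or H2-Q4.
H2-D1: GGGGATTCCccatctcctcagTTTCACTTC
H2-K1: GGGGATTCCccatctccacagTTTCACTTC
H2-Q4: ggggatttcccatctccccagTTTCACTTC
H2-D1 and H2-K1 were identical at 29 of these 30 bases, and H2-Q4 matched each of them at 28. Downstream of the stretch the promoters of H2-K1 (chr17:34000359-34000428, minus strand) and H2-Q4 (chr17:35379473-35379542) and the promoter of B2m (ENSMUSG00000060802, chr2:122147548-122147638, plus strand) are shown for the letters of the box motifs on which NLRC5 is known to act; the H2-Q4 stretch shown holds ATTGG and not TGACG. Capitals mark TGACG, the X2 box, ATTGG, the Y box CCAAT read from the other strand, and in B2m also GAAANNGAA, the core of the interferon response element.
H2-K1 downstream: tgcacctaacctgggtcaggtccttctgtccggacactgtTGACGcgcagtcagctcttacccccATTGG
H2-Q4 downstream: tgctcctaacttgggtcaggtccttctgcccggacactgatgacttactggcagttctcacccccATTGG
B2m: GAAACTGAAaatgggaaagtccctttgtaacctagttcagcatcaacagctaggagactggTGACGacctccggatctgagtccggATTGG
Searched on both strands in 300-base windows, from 250 bases before to 50 after each start, GGGGATTCC was found in 0.25% of 32851 promoters, GAANNGAAA in 7.52%, GAAANNGAA in 8.56%, TGACG in 20.8% and CCAAT in 37.4%. Of the 8 members with a promoter entry, H2-D1 and H2-K1 held GGGGATTCC, those and H2-Q4 held GAANNGAAA, B2m and H2-T23 held GAAANNGAA, 6 held TGACG and 7 held CCAAT. GGGGATTCC and GAANNGAAA do not overlap in the stretch shown. Tap2 and Nlrc5 were not matched. A match of letters is a description of the window only.

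In excitatory neurons H2-D1, a classical heavy chain, rose in the knockout, and no other member passed the test. H2-D1 measured 3.82, 3.69, 6.01 and 6.21 CPM, from 113, 106, 155 and 164 UMIs. The 2 knockout values were the higher ones, and the spread within each genotype was small. The log2 fold change was 0.70 ± 0.154 (edgeR quasi-likelihood, Benjamini-Hochberg adjusted p = 0.0469, n = 2 per genotype), and 751 of 19254 genes (3.9%) were called in this class. This adjusted p lies at the threshold: it was 0.104 without wildtype replicate 1, 0.0944 without wildtype replicate 2, 0.123 by DESeq2, 0.0916 with no filter on low counts and 0.0502 with doublets kept, and between 0.00936 and 0.0493 in the other alternatives that use no replicate block.

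H2-K1, the other classical heavy chain of this strain, measured 1.25, 1.11, 2.17 and 3.86 CPM in excitatory neurons, from 37, 32, 56 and 102 UMIs. The knockout libraries were again the higher ones, with knockout replicate 2 well above replicate 1. Its log2 fold change was 1.35 ± 0.310 and missed the threshold (edgeR adjusted p = 0.0529), but it passed by DESeq2 (0.0441), with doublets kept (0.0488), without neuron clusters 5 and 8, whose nuclei were spread unevenly over the libraries (0.0411) and without wildtype replicate 1 (0.00796), wildtype replicate 2 (0.0136) or knockout replicate 1 (3.23e-06). Without knockout replicate 2 the log2 fold change was 0.87 (adjusted p = 0.110).

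The other heavy chains were nearly level in excitatory neurons. H2-T23, a class I-like chain that presents leader peptides to receptors of NK cells, measured 3.58, 3.76, 3.26 and 3.44 CPM (-0.13 ± 0.174, edgeR adjusted p = 0.717). H2-Q4 measured 1.45, 1.60, 1.63 and 2.23 CPM (0.34 ± 0.252, adjusted p = 0.490). Both knockout values of H2-T23 were the lower ones and both of H2-Q4 the higher, and neither difference passed the test. Heavy chain genes resemble each other, and some 90-base stretches of their transcripts also occur in other genes. Of all stretches, 4.25% in H2-D1, 1.54% in H2-K1, 4.01% in H2-T23 and 3.70% in H2-Q4 were shared in this way. Near the 3′ ends, which these libraries count, the shares were 7.72, 1.99, 5.59 and 5.99% in the same order. A small share of tags may thus not tell these genes apart. For the other 6 members no shared stretch was found.

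B2m, the light chain all of these need, measured 6.52, 6.47, 6.13 and 7.72 CPM in excitatory neurons, and the genotypes overlapped (0.09 ± 0.159, edgeR adjusted p = 0.782). Tap1, on chromosome 17 at 34187553 to 34197225, measured 0.371, 0.313, 0.272 and 0.378 CPM (-0.07 ± 0.458), from 7 to 11 UMIs per library. Tap2, the partner subunit at 34203527 to 34216321, measured 1.86, 2.05, 2.48 and 2.16 CPM (0.25 ± 0.215, adjusted p = 0.558). The genotypes overlapped for Tap1, while both knockout values of Tap2 were the higher ones, and neither gene passed the test. Psmb8 measured 0.304, 0.696, 0.349 and 0.568 CPM (-0.11 ± 0.502), and Psmb9 had 5, 5, 2 and 11 UMIs and was too low to test. Nlrc5, on chromosome 8 at 94434356 to 94527272, measured 0.540, 0.278, 0.388 and 0.681 CPM (0.38 ± 0.481, adjusted p = 0.701). Psmb8, Psmb9, Tap1 and Nlrc5 are thus near the floor of detection in these neurons, with 2 to 20 UMIs per library. Of all 10 members 4 had both knockout libraries above both wildtype libraries, where 24.5% of genes with a UMI did, 1 had both below and 5 overlapped.

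**Figure D2:**
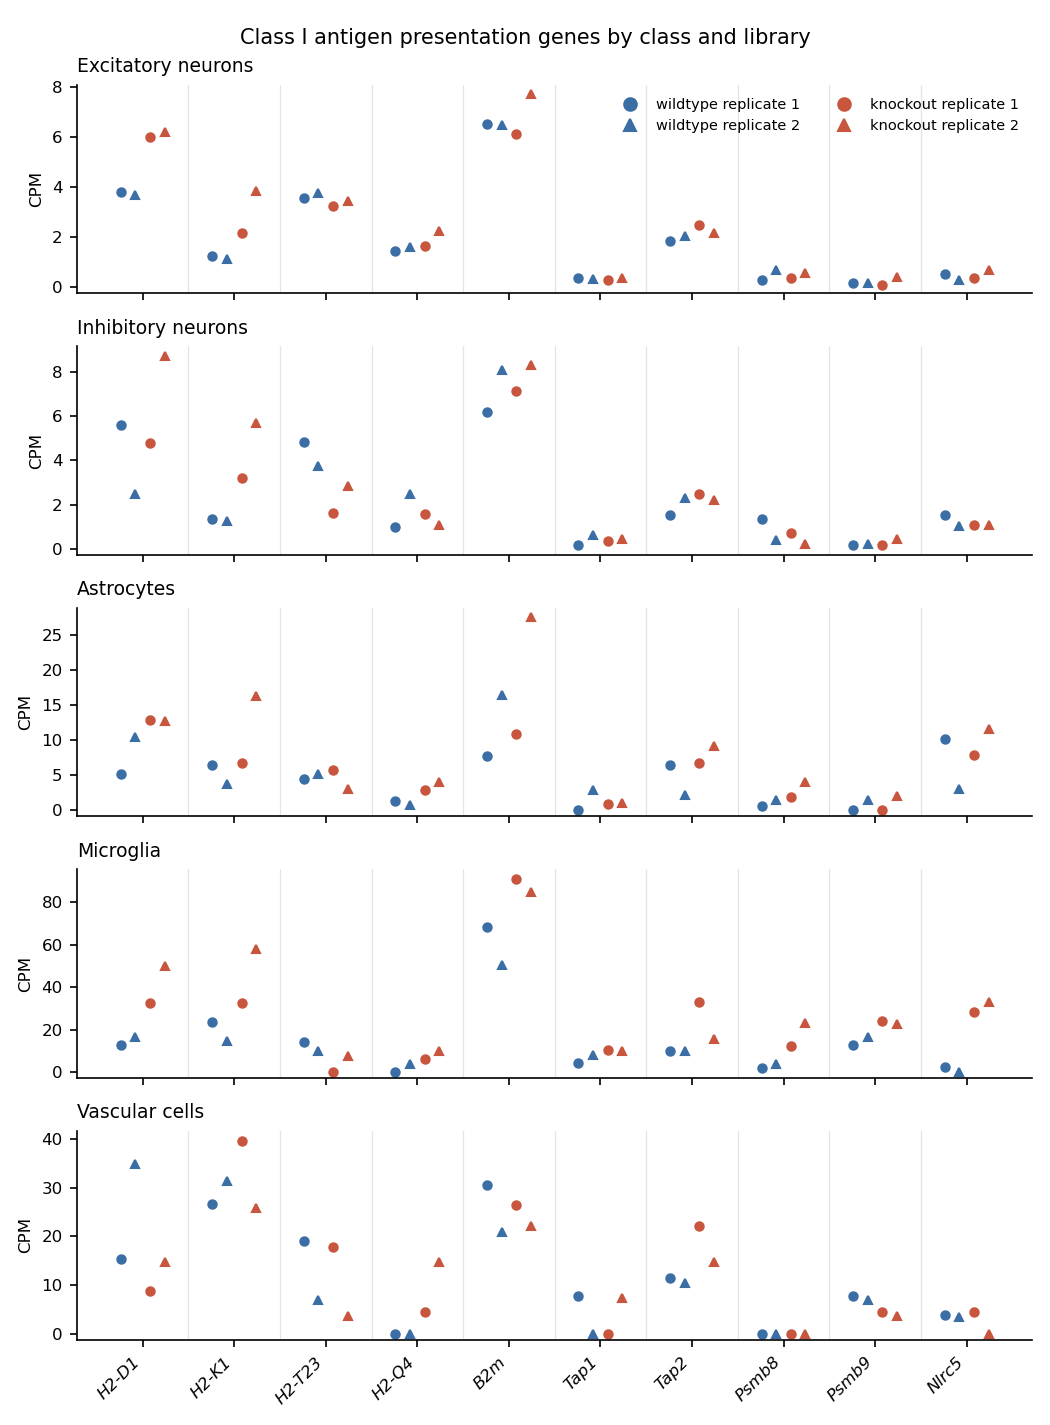
Level of the 10 genes (CPM) in 5 cell classes, 1 point per library, circles for replicate 1 and triangles for replicate 2, each panel with its own linear axis. In microglia both red knockout points lie above both blue wildtype points for 9 genes, and in excitatory neurons for H2-D1, H2-K1, H2-Q4 and Tap2.

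Markers of several other cell types moved with these values, and those of others moved the other way. In excitatory neurons the 11 microglia markers summed to 135, 155, 170 and 200 CPM, with 4 of 11 higher in both knockout libraries and none at 0, against 5299, 5133, 5759 and 5084 CPM in microglia. C1qa alone measured 9.56, 11.7, 13 and 22.2 CPM in excitatory neurons. Endothelial markers summed to 53.1, 52.1, 75.2 and 87.2 CPM there (4 of 10 higher in both knockout libraries), and border macrophage markers to 6.47, 7.08, 9.96 and 13.6 CPM (2 of 8). Oligodendrocyte precursor markers summed to 225, 228, 362 and 350 CPM (2 of 7 higher and 2 lower in both knockout libraries). None of the markers on these lists was at 0 there. Sums of mural markers (22.8, 25.2, 25.3 and 30.8 CPM, 2 of 10, none at 0) had the same order of genotypes. So did T and NK lymphocyte markers, at 22.6, 23.7, 27.3 and 27.1 CPM. Of these, 4 of 14 were higher and 2 lower in both knockout libraries, with Gzmb at 0. Astrocyte markers were lower in both knockout libraries, at 545.58, 568.2, 453.83 and 456.31 CPM (2 of 9 higher, 3 lower). Monocyte, granulocyte and dendritic cell markers were lower too, at 24.66, 18.83, 11.97 and 10.36 CPM (3 of 9 higher, 1 lower). The sums of oligodendrocyte, B cell and both neuron lists were also lower in both. RNA of cytosolic ribosomal proteins made up 0.349, 0.411, 0.498 and 0.565% of UMIs in the same nuclei. The part of these cell types' RNA in the heavy chain values was not tested. With ribosomal and mitochondrial genes left out of the totals the H2-D1 log2 fold change was 0.70 (edgeR adjusted p = 0.0461). Ribosomal protein RNA is so small a share of the totals that this fit cannot show its part in the value.

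Within neuron subclasses and clusters no member passed, in 16 tested groups in which 1.38% of all gene tests passed. Of 22 tests of members 4 had an unadjusted p under 0.05 (edgeR; no other tool was run there). H2-K1 in layer 2/3 intratelencephalic (L2/3 IT) neurons measured 0.691, 0.605, 2.16 and 3.78 CPM (2.20 ± 0.479, edgeR adjusted p = 0.0714). H2-D1 in excitatory cluster 6 measured 2.19, 0.869, 5.67 and 6.65 CPM (1.92 ± 0.522, adjusted p = 0.0548). Both knockout libraries were the higher ones in each of these. In layer 4/5 IT neurons H2-D1 measured 7.93, 5.49, 9.73 and 13.3 CPM (0.77 ± 0.322, adjusted p = 0.288), and in cluster 7 it measured 3.06, 2.91, 5.79 and 7.57 CPM (1.09 ± 0.463, adjusted p = 0.389). In layer 5 IT neurons H2-D1 stood at 3.75, 4.40, 4.86 and 7.78 CPM and in layer 6 corticothalamic neurons at 3.73, 6.19, 6.62 and 7.05 CPM. All 6 groups in which H2-D1 could be tested had a positive log2 fold change, between 0.49 and 1.92. In clusters 6 and 7 its counts were 6, 2, 13 and 13 and 7, 7, 14 and 9 UMIs. Only the knockout libraries reached the filter on low counts there, and the same held for H2-K1 in L2/3 IT neurons (5, 5, 16 and 33 UMIs). These tests were open only through the genotype with the higher values, so neither their sign nor their p is free of that selection. H2-D1 had both knockout libraries above both wildtype libraries in 8 of the 16 groups and H2-K1 in 8, where 18.0% of genes with a UMI did. H2-T23 had both knockout libraries above in 1 group and below in 6, and B2m above in 4 and below in 3. The 16 groups come from the same 4 libraries and are not independent.

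**Figure D3:**
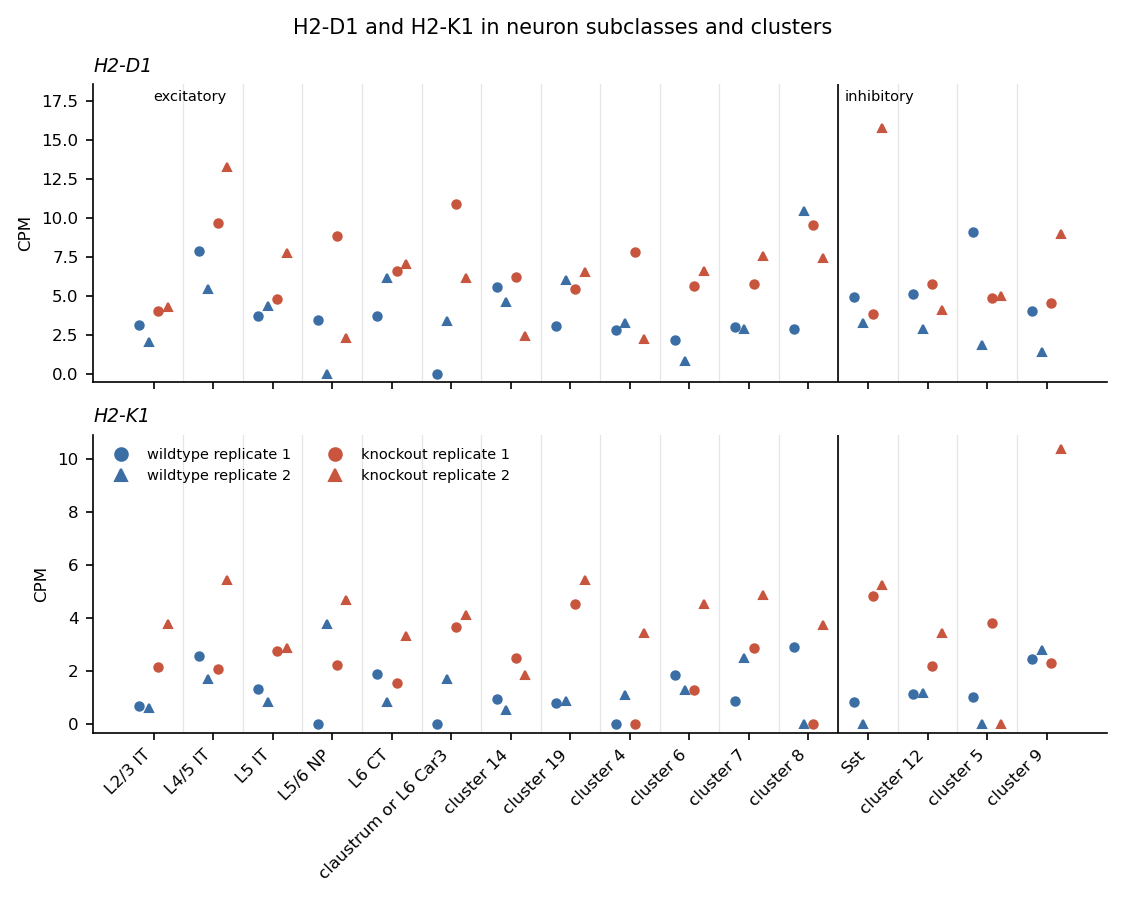
H2-D1 (upper panel) and H2-K1 (lower panel) in CPM across 16 subclasses and numbered clusters of excitatory and inhibitory neurons, 1 point per library. Red knockout points lie above both blue wildtype points in 8 groups for each gene, and the highest H2-D1 value is 15.8 CPM in Sst neurons of knockout replicate 2.

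In inhibitory neurons no member passed by edgeR or by DESeq2, and 2 of the 5 tested had an unadjusted p under 0.05, where 0.554% of 15160 genes were called by edgeR. H2-K1 measured 1.36, 1.24, 3.21 and 5.69 CPM, from 7, 6, 18 and 26 UMIs (1.73 ± 0.465, edgeR adjusted p = 0.177). Only its knockout counts reached the filter on low counts, so H2-K1 entered the test through the genotype in which it was high. Both knockout libraries were the higher ones. It passed with no filter on low counts (adjusted p = 0.0120) and without knockout replicate 1 (0.00888), and was at 0.915 at the other end of the fits that leave out 1 library. H2-T23 went the other way, with 4.84, 3.73, 1.60 and 2.85 CPM (-0.98 ± 0.407, edgeR adjusted p = 0.403). Of its 25, 18, 9 and 13 UMIs both wildtype counts reached the filter, while knockout replicate 1 did not. Its fold change was -0.54 without clusters 5 and 8, -0.60 without knockout replicate 1 and -1.41 without knockout replicate 2. H2-D1 measured 5.62, 2.49, 4.81 and 8.75 CPM and its genotypes overlapped (0.70 ± 0.419, adjusted p = 0.570, and 0.0445 without knockout replicate 1). B2m (0.11 ± 0.260) and Tap2 (0.30 ± 0.444) overlapped too, and the remaining 5 members had 1 to 12 UMIs per library. Of the 10 members H2-K1 had both knockout libraries above, H2-T23 had both below and 8 overlapped, against 19.3% of genes above. Microglia markers summed to 153, 187, 203 and 206 CPM in these nuclei, with 5 of 11 higher in both knockout libraries. Endothelial markers summed to 41.5, 38.6, 56.8 and 52.8 CPM and mural markers to 34.5, 34.1, 47.7 and 45.9 CPM, each with 3 of 10 higher in both knockout libraries. None of the markers on these lists was at 0, and their part in the member values was not tested. Cluster 5 held 456, 232, 870 and 221 of the inhibitory nuclei, the highest number in knockout replicate 1.

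In microglia Nlrc5, the activator of class I promoters, rose in the knockout, and no other member passed the test. Nlrc5 had 1, 0, 13 and 16 UMIs in microglia, or 2.14, 0, 28.1 and 33.1 CPM. The genotypes lay far apart, with the knockout higher. Only the knockout counts were above the minimum count of the filter on low counts. The gene thus entered the test through the genotype in which it was high. Summed over the libraries, 29 knockout UMIs stood against 1 in wildtype, a ratio of 28.9 with an exact 95% counting interval of 4.79 to 1180. The edgeR adjusted p was 0.00297, with a fitted log2 fold change of 4.55 ± 0.842 that depends on the prior count at such low wildtype values, and 136 of 8957 genes (1.52%) were called in microglia. The call rests on few UMIs: the adjusted p was 0.0619 without wildtype replicate 2, 0.0716 without knockout replicate 1 and 0.442 by DESeq2, and the gene did not reach the filter without knockout replicate 2 or among nuclei with at least 1000 UMIs.

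Nuclei with an Nlrc5 UMI made up 0.183, 0, 2.10 and 2.32% of microglia (exact Clopper-Pearson 95% intervals 0.005 to 1.01, 0 to 0.629, 1.05 to 3.73 and 1.31 to 3.80%), at a median of 858, 825, 883.5 and 757.5 UMIs per nucleus. The 13 and 16 knockout UMIs came from 11 and 15 nuclei, with at most 2 in any nucleus. In excitatory neurons, at 4046, 3596, 3955.5 and 3170 median UMIs, the share was 0.234, 0.109, 0.155 and 0.227%. Thinned to 1000 UMIs per nucleus, which left 166, 146, 168 and 107 microglia, the shares were 0, 0, 1.19 and 3.74%. The knockout microglia shares were thus above those of neurons although the microglia were less deeply sequenced. A transcript annotated on the other strand, 9330175E14Rik, overlaps Nlrc5, and the source of its UMIs is uncertain because the use of strand in counting is not given in the sources used here.

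The heavy chains and B2m did not pass in microglia. H2-D1 measured 12.8, 16.7, 32.5 and 49.7 CPM, from 6, 8, 15 and 24 UMIs (1.46 ± 0.435, edgeR adjusted p = 0.0858). Like Nlrc5 it reached the filter on low counts only in the knockout, and so entered the test through the genotype in which it was high. H2-K1, from 11, 7, 15 and 28 UMIs, reached the filter in both libraries only in the knockout. H2-K1 measured 23.5, 14.6, 32.5 and 58 CPM (1.25 ± 0.416, adjusted p = 0.133, and 0.0487 without knockout replicate 1). B2m measured 68.4, 50.2, 90.9 and 84.9 CPM (0.57 ± 0.265, adjusted p = 0.328). In all of these both knockout libraries were the higher ones, while in the subset of microglia with at least 1000 UMIs the B2m fold change turned to -0.49. H2-D1 reached 1.10, 1.20, 2.67 and 3.72% of microglia nuclei, and after thinning to 1000 UMIs 0.602, 2.06, 2.38 and 6.54%, against 0.310, 0.260, 0.586 and 0.711% of excitatory neurons thinned the same way.

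The processing genes of microglia had the same order of genotypes. Psmb9 measured 12.8, 16.7, 23.8 and 22.8 CPM (0.65 ± 0.498, edgeR adjusted p = 0.644). It had 6, 8, 11 and 11 UMIs and reached the filter only in the knockout. Psmb8 had 1, 2, 6 and 12 UMIs, a ratio of 5.97 between the summed genotypes with a counting interval of 1.74 to 31.6, and Tap2 had 5, 5, 16 and 8 UMIs (2.39, interval 1.10 to 5.60). Neither reached the filter, and these intervals cover counting error only. Tap1 had 2, 4, 5 and 5 UMIs and H2-Q4 had 0, 2, 3 and 5. H2-T23 was the exception, with 7, 5, 0 and 4 UMIs. In all, 9 of 10 members had both knockout libraries above both wildtype libraries in microglia and 1 had both below, where 17.3% of genes with a UMI lay above. The members share their 4 libraries, so the 9 are not independent.

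**Figure D4:**
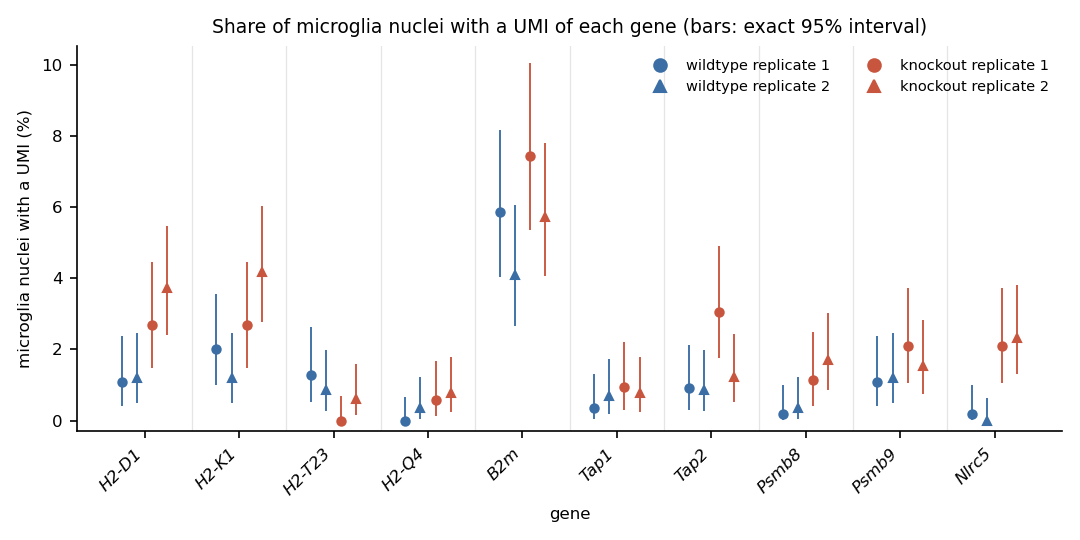
Share of microglia nuclei with at least 1 UMI of each gene (%), 1 point per library with its exact 95% binomial interval. For Nlrc5 the knockout shares are 2.10 and 2.32% and the wildtype shares 0.183 and 0%, while the intervals of both genotypes overlap for B2m and Tap1 among other genes.

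Other cell types were looked for among the microglia. Markers of border macrophages summed to 244, 226, 196 and 199 CPM there, with F13a1 at 0. The sums of both knockout libraries were the lower ones, but by single markers 2 of 8 were higher in both knockout libraries and 1 lower. Of 14 T and NK lymphocyte markers 7 had no UMI in microglia, among them Cd3e, Cd3d and Cd8a, and the list summed to 24.2, 23.8, 31.0 and 38.4 CPM. Of 6 B cell markers 4 had no UMI, and the list summed to 96.7, 79.3, 149 and 123 CPM, higher in both knockout libraries; its part in the member values was not tested. Of the 11 microglia markers 4 were higher in both knockout libraries of microglia. These were the complement genes, with C1qa at 161, 165, 252 and 290 CPM, and Sall1 (64.4, 85.3, 120 and 121 CPM). Cx3cr1 (515, 488, 458 and 481 CPM) was slightly lower in both, the only 1 of the list, and P2ry12 (570, 508, 539 and 524 CPM) overlapped. Ribosomal protein RNA made up 1.27, 1.43, 1.75 and 1.94% of microglia UMIs. With ribosomal protein and mitochondrial genes left out Nlrc5 had an edgeR adjusted p of 0.00338. Leaving out so small a share of the totals cannot show its part in the member values, which was not tested.

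In astrocytes 0 of 3 members tested passed by edgeR or DESeq2, none with an unadjusted p under 0.05, and 1.36% of 11643 genes were called by edgeR. H2-D1 measured 5.12, 10.4, 12.9 and 12.7 CPM (0.75 ± 0.455, edgeR adjusted p = 0.529). B2m measured 7.69, 16.4, 10.9 and 27.5 CPM (0.69 ± 0.441, adjusted p = 0.554), with both replicate 2 libraries above both replicate 1 libraries. Nlrc5, which stood higher in astrocytes than in neurons, measured 10.2, 2.98, 7.96 and 11.6 CPM, and wildtype replicate 2 alone was low (0.50 ± 0.545, adjusted p = 0.776). H2-K1, from 10, 5, 7 and 16 UMIs, was not tested. Of the 10 members 5 had both knockout libraries above both wildtype libraries (16.6% of genes did), and 5 overlapped.

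Cells of the oligodendrocyte line showed little. H2-K1 in oligodendrocytes measured 5.02, 5.09, 5.95 and 12.3 CPM (0.79 ± 0.462, edgeR adjusted p = 0.483) and knockout replicate 2 alone stood apart. B2m measured 14.5, 15.3, 13.9 and 22.9 CPM (0.27 ± 0.306) and H2-D1 7.52, 5.60, 7.27 and 7.36 CPM (0.15 ± 0.423), and both overlapped. None of these 3 had an unadjusted p under 0.05 or passed by DESeq2, and 0.931% of 12358 genes were called by edgeR. In oligodendrocyte precursors no member reached the filter on low counts, and 0.0524% of 9541 genes were called.

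**Figure D5:**
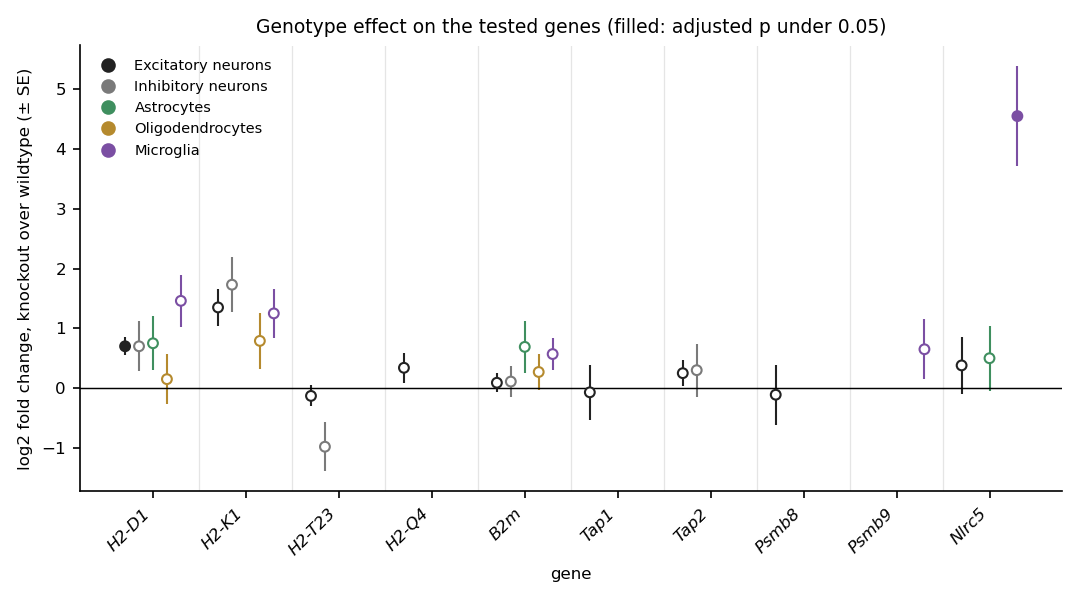
Genotype effect on each gene that could be tested, as log2 fold change, knockout over wildtype, ± SE, in 5 cell classes; filled points passed an adjusted p of 0.05. H2-D1 in excitatory neurons (0.70) and Nlrc5 in microglia (4.55) are the filled points, and H2-T23 in inhibitory neurons is the lowest at -0.98.

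In vascular cells the members were present but counted too thinly to test, and none reached the filter in vascular cells together, in fibroblasts or in mural cells. Of the genes that did, 0.0% of 6269 were called in vascular cells, 0.0225% of 4454 in fibroblasts and 0.0% of 893 in mural cells. H2-K1 measured 26.7, 31.4, 39.7 and 25.8 CPM in vascular cells, from 7 to 9 UMIs per library, and B2m 30.5, 20.9, 26.5 and 22.1 CPM. The genotypes overlapped for both. H2-D1 measured 15.3, 34.9, 8.83 and 14.7 CPM, with both knockout libraries below both wildtype libraries and a summed ratio of 0.473 (counting interval 0.149 to 1.31). H2-T23 had 5, 2, 4 and 1 UMIs and Tap2 3, 3, 5 and 4, and H2-Q4 had 0, 0, 1 and 4. Psmb8 had no UMI in any vascular library, which allows up to 3 UMIs in each. Of the 9 members with a UMI 2 had both knockout libraries above (14.6% of genes did), 2 had both below and 5 overlapped. The 20 to 26 endothelial nuclei and 11 to 24 border macrophages per library were too few to test alone.

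Whether the genotype effect on a member differed between excitatory neurons and another class was tested as a genotype by class term in 8 pairs of classes, the vascular cells among them both together and by type. None of 69 such tests of members passed, 5 had an unadjusted p under 0.05, and 0.365% of all 148103 gene tests passed (edgeR; no other tool was run). The smallest p was for Nlrc5 in microglia, where the effect exceeded that in excitatory neurons by 4.43 ± 1.40 log2 units (edgeR adjusted p = 0.172). Psmb8 followed in microglia (2.66 ± 1.18, adjusted p = 0.684). The H2-D1 effect in vascular cells was lower than in excitatory neurons by -1.75 ± 0.865 (edgeR adjusted p = 1). The differences in H2-D1 in excitatory neurons and in Nlrc5 in microglia were not shown to be particular to those classes.

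Other genes of the pathway, in lists of related function, changed little in number. In excitatory neurons 0 of 5 tested other class I heavy chain genes, 0 of 12 peptide loading genes, 0 of 9 other proteasome genes, 0 of 21 regulators of class I transcription, 0 of 5 class II genes and 0 of 3 receptors that bind class I passed by edgeR, against 3.9% of all genes. Of these lists 0, 2, 5, 5, 1 and 0 genes had an unadjusted p under 0.05. The constitutive catalytic subunits Psmb6 (20.6, 25.2, 30.5 and 36.8 CPM, 0.56 ± 0.137, adjusted p = 0.0657) and Psmb5 (25.8, 31.7, 37.8 and 43.5 CPM, 0.50 ± 0.131, adjusted p = 0.0783) missed the threshold by edgeR. Both passed by DESeq2, at 0.0175 and 0.0265. The assembly chaperone Pomp (0.36 ± 0.105, adjusted p = 0.104), the translocon gene Sec61a1 (0.37 ± 0.0929, 0.0721) and the lysosomal protease gene Ctss (0.62 ± 0.229, 0.179) had positive values too, and Lnpep, a trimming peptidase, a negative one (-0.39 ± 0.122, 0.123). Among regulators Stat2 (0.37 ± 0.111, 0.110) and Nfkb2 (0.35 ± 0.116, 0.142) were positive and Crebbp negative (-0.23 ± 0.0772, 0.145). The proteasome list had a median log2 fold change of 0.27, with 7 of 9 genes positive, where the median of all genes was 0.002 and 50.4% were positive. The share of ribosomal protein RNA, 0.349, 0.411, 0.498 and 0.565% in these nuclei, had the same order of libraries as Psmb6 and Psmb5. With ribosomal protein and mitochondrial genes left out, the log2 fold changes were 0.56 for Psmb6 and 0.50 for Psmb5. That fit changes the totals little, so it cannot show what part the ribosomal share has in these values, and this was not tested. In microglia 0 of 11 peptide loading genes and 0 of 7 other proteasome genes passed by edgeR, with 0 and 3 at an unadjusted p under 0.05.

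Of the listed genes of interferon signalling described here, Ifnar2 passed in 2 classes. Ifnar2, a subunit of the type I interferon receptor, rose in excitatory neurons, with 15.9, 16.6, 41.6 and 55.5 CPM (1.58 ± 0.147, edgeR adjusted p = 0.000889), as 1 of 8 receptor and kinase genes. It also rose in oligodendrocytes, with 20.6, 19.8, 35.7 and 58.1 CPM (1.19 ± 0.250, adjusted p = 0.0415), where the call ended without knockout replicate 2 (0.170), with no filter on low counts (0.0881), among nuclei with at least 1000 UMIs (0.144) and by DESeq2 (0.226). In both classes the wildtype libraries lay close together and below both knockout libraries.

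Across the 32 library and class levels, among 14353 genes, those most like H2-D1 were Arl10 (Pearson r of log2 levels 0.894), Tcirg1 (0.890), AI987944 (0.878) and Pygo2 (0.869). Those most like H2-K1 were Parp12 (0.876), Lrp10 (0.876), Birc3 (0.857) and Tmem176a (0.845), and those most like B2m were Il17ra (0.922), Vrk2 (0.915), Rcbtb2 (0.910) and Nfya (0.894). The 32 points come from 4 libraries and share their depth within a library, so these values describe the levels only. Of these 12 genes 9 were highest in microglia and 3 in fibroblasts.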

How the data were processed

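Nuclei from mouse cortex were isolated on a sucrose gradient and sequenced as droplet 3′ libraries, per the labels' protocols. The authors deposited 1 matrix of UMI counts per library, and the submitters' processing notes name Cell Ranger 7.1.0 and the build mm10. The deposited counts were used as whole numbers. Nuclei needed at least 500 UMIs, 300 detected genes and no more than 5% of UMIs from mitochondria, and Scrublet removed 4.14 to 5.11% as doublets. Clustering (scanpy 1.11.5, 2000 variable genes, 30 components, 15 neighbours, Leiden resolution 1.0, seed 1) left out 98 antigen presentation genes. Naming a cluster by the number of markers detected did not separate the classes, so clusters were named by the relative level of the same markers, with at least 3 of them in at least 5% of nuclei and no conflict among leading genes. Of the 52038 nuclei 48811 were named and 3227 were not. Any difference from a published annotation may come from these rebuilt names.

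Counts were summed per library and class and tested with edgeR 4.0.16 (R 4.3.3): TMM scaling, filterByExpr with a minimum count of 10, quasi-likelihood F test and Benjamini-Hochberg adjustment over all genes tested, with 0.05 as the threshold. That filter asks for the minimum count, scaled to library size, in as many libraries as 1 genotype has, so a gene can enter through 1 genotype alone. Classes with under 30 nuclei in any summed set were left out. SE is the absolute log2 fold change divided by the square root of F. CPM carries the TMM scaling, and is not length-corrected, so genes are not ranked by level. DESeq2 1.42.0, other scalings and filters, and fits without each library were the alternatives. Beyond the members, the rule named the listed genes that passed in a class and, in excitatory neurons, up to 3 more per list with the smallest p. A listed gene that the rule names is not reported here. Members and lists were chosen with earlier results of these data known. Binomial and ratio intervals are exact at 95% and cover counting error only. The scripts were tested on simulated data.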

Additional observations from a re-analysis of the deposited data

How the results depend on the processing

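Of 457 refitted log2 fold changes of members and listed genes, 388 kept their direction and side of the threshold, 38 came to pass it, 16 no longer passed and 15 changed sign. The sign changes were B2m in astrocytes (-0.12), excitatory neurons (-0.09) and oligodendrocytes (-0.10) without knockout replicate 2, in inhibitory neurons without wildtype replicate 1 (-0.07) or clusters 5 and 8 (-0.06), and with at least 1000 UMIs in microglia (-0.49) and oligodendrocytes (-0.18). Nlrc5 turned in astrocytes (-0.08) and excitatory neurons (-0.02) without wildtype replicate 2 and in the latter without knockout replicate 2 (-0.09), Psmb8 in excitatory neurons without wildtype replicate 2 (0.58) or knockout replicate 1 (0.19), Tap1 there without wildtype replicate 1 (0.05) or knockout replicate 1 (0.14), and H2-D1 in oligodendrocytes without wildtype replicate 2 (-0.04). Over the fits that leave out 1 library the highest values of B2m were 1.29 in astrocytes, 0.25 in excitatory neurons, 0.3 in inhibitory neurons and 0.63 in oligodendrocytes, of Nlrc5 1.66 in astrocytes and 0.93 in excitatory neurons, and of H2-D1 in oligodendrocytes 0.38, and the lowest in excitatory neurons were -0.6 for Psmb8 and -0.33 for Tap1. None of these passed as reported, and the cause was not tested. Genes called by DESeq2 were 48 in astrocytes, 0 in fibroblasts, 15 in microglia, 0 in precursors and 30 in oligodendrocytes. With no filter they were 345 in astrocytes, 328 in excitatory neurons, 7 in fibroblasts, 522 in inhibitory neurons, 30 in microglia, 24 in precursors, 46 in oligodendrocytes and 18 in vascular cells. With at least 1000 UMIs they were 2 in fibroblasts, 31 in microglia, 3 in precursors, 35 in oligodendrocytes and 4 in vascular cells. Fibroblasts had 0 with doublets kept and 3 when clustered with antigen presentation genes, precursors 8 with RLE factors, and inhibitory neurons 203 without clusters 5 and 8, an alternative chosen after seeing the data. Leaving out 1 library gave 124 to 487 genes in astrocytes, 657 to 3152 in excitatory neurons, 0 to 4 in fibroblasts, 17 to 920 in inhibitory neurons, 97 to 183 in microglia, 0 to 3 in mural cells, 8 to 42 in precursors, 92 to 161 in oligodendrocytes and 1 to 5 in vascular cells. Members called then ranged from 1 to 2 in excitatory neurons, 0 to 2 in inhibitory neurons and 0 to 1 in microglia. They were 0 in excitatory and 1 in inhibitory neurons with no filter, 2 in excitatory neurons without clusters 5 and 8, and 0 in microglia by DESeq2 or with at least 1000 UMIs. Members above excitatory neurons became 5 in astrocytes, 5 in fibroblasts, 1 in inhibitory neurons and 3 in precursors without scaling.

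Replicate numbers are shared by 2 pairs only and nothing in the labels pairs the animals; deviations of same-numbered samples correlated at 0.12 to 0.461 over the classes, and each number also marks a pattern of sex-linked RNA. With the replicate number as a block, calls were 328 in astrocytes, 3714 in excitatory neurons, 21 in fibroblasts, 605 in inhibitory neurons, 430 in microglia, 17 in precursors and 704 in oligodendrocytes, and members called were 2 in excitatory neurons (H2-D1, edgeR adjusted p = 0.00229, and H2-K1, 0.000422), 1 in inhibitory neurons (H2-K1, 0.0287) and 2 in microglia (Nlrc5, 5.06e-06, and H2-D1, 0.0283). No member reached the filter on low counts in vascular cells, fibroblasts, mural cells or oligodendrocyte precursors.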
